A study of Saccharomyces cerevisiae with 10 samples.

Results

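Translation factors and aminoacyl-tRNA synthetases are the 52 genes described here, out of 6259 genes or unnamed rows on the arrays. They were chosen by name: a row belongs when its platform gene symbol is on a list of 23 initiation factors, 11 elongation and termination factors and 18 aminoacyl-tRNA synthetases. All 52 were found by symbol, each on 1 row, and all 52 had enough values to be tested. RNA of the Saccharomyces cerevisiae strain DJ28 was compared with RNA of the strain FY23 on 10 arrays with 2 dyes, each array holding both strains. DJ28 was in Cy3 and FY23 in Cy5 on arrays 1 to 5, and the dyes were exchanged on arrays 6 to 10. The series title names a mutant whose Ras/cAMP signalling is always on, and PDE2 is a keyword of the samples. The sources used here give neither the alleles of the strains, the growth medium and the stage of harvest, nor whether arrays came from separate cultures. P-values therefore measure the spread between arrays, which may be technical, and in RNA from a whole culture a change in some cells and a smaller change in every cell cannot be told apart.

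Initiation factors bring the small ribosomal subunit, the initiator tRNA and the mRNA together at a start codon. Elongation factors then deliver charged tRNAs and move the ribosome along the message, and termination factors release the finished protein. Each aminoacyl-tRNA synthetase joins an amino acid to its tRNAs. In budding yeast, glucose acting through Ras, cyclic AMP and protein kinase A is known to favour growth and the expression of genes for protein synthesis.

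Values are log2 ratios of DJ28 over FY23 after each array was centred on its median, so 0 is the middle of all genes on that array, and a positive value is given as higher in DJ28. The numerator dye of the deposited ratio is named in none of the sources used here. Red over green was taken, the direction in which PDE2, which encodes a phosphodiesterase that breaks down cyclic AMP, is lower in DJ28 (log2 difference -1.96, standard error 0.17, limma adjusted p = 0.00153). This direction is likely, not settled: it rests on reading DJ28 as the mutant and PDE2 as its lost gene, neither of which the labels state. Under green over red every higher and lower below turns, while sizes and p-values stay. Arrays 6 and 7 correlated at r = 0.988, against at most 0.694 for any other pair, so they were averaged and counted as 1 replicate, which left 9. Pairs of the same orientation went down to r = -0.004, for arrays 3 and 4. In the deposited ratio, arrays 3 and 8, of opposite orientations, correlated at 0.675. Array 1 had 2230 values and array 2 had 4342, against 5755 to 6048 on arrays 3 to 10. Of the 52 members, 29 had a value on all 9 replicates and 17 on 8.

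No member passed the test between DJ28 and FY23. In limma's moderated test, adjusted over all 5642 genes, 0 of 52 members were called in either direction, where 31 genes or 0.549% of all tested were called. At an unadjusted p under 0.05, 3 members were higher (TIF35, CDC33 and HYP2), where 5.96% of all genes were, and 6 were lower (GCD11, EFT1, EFT2, ILS1, VAS1 and ALA1), where 7.39% of all genes were. The differences ran from -0.69 for GCD11 to 0.46 for TIF4632. Of the 52 differences, 39 were smaller than 1.2-fold and 1 was larger than 1.5-fold. The 95% interval excluded a 2-fold difference for 50 members, all but GCD11 and TIF4632. The median standard error of a difference was 0.13 for the members and 0.13 for all genes tested, and the number of arrays limits this precision. The counts by fold and by interval were not made over all genes, so they are not given as particular to the members.

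**Figure D1:**
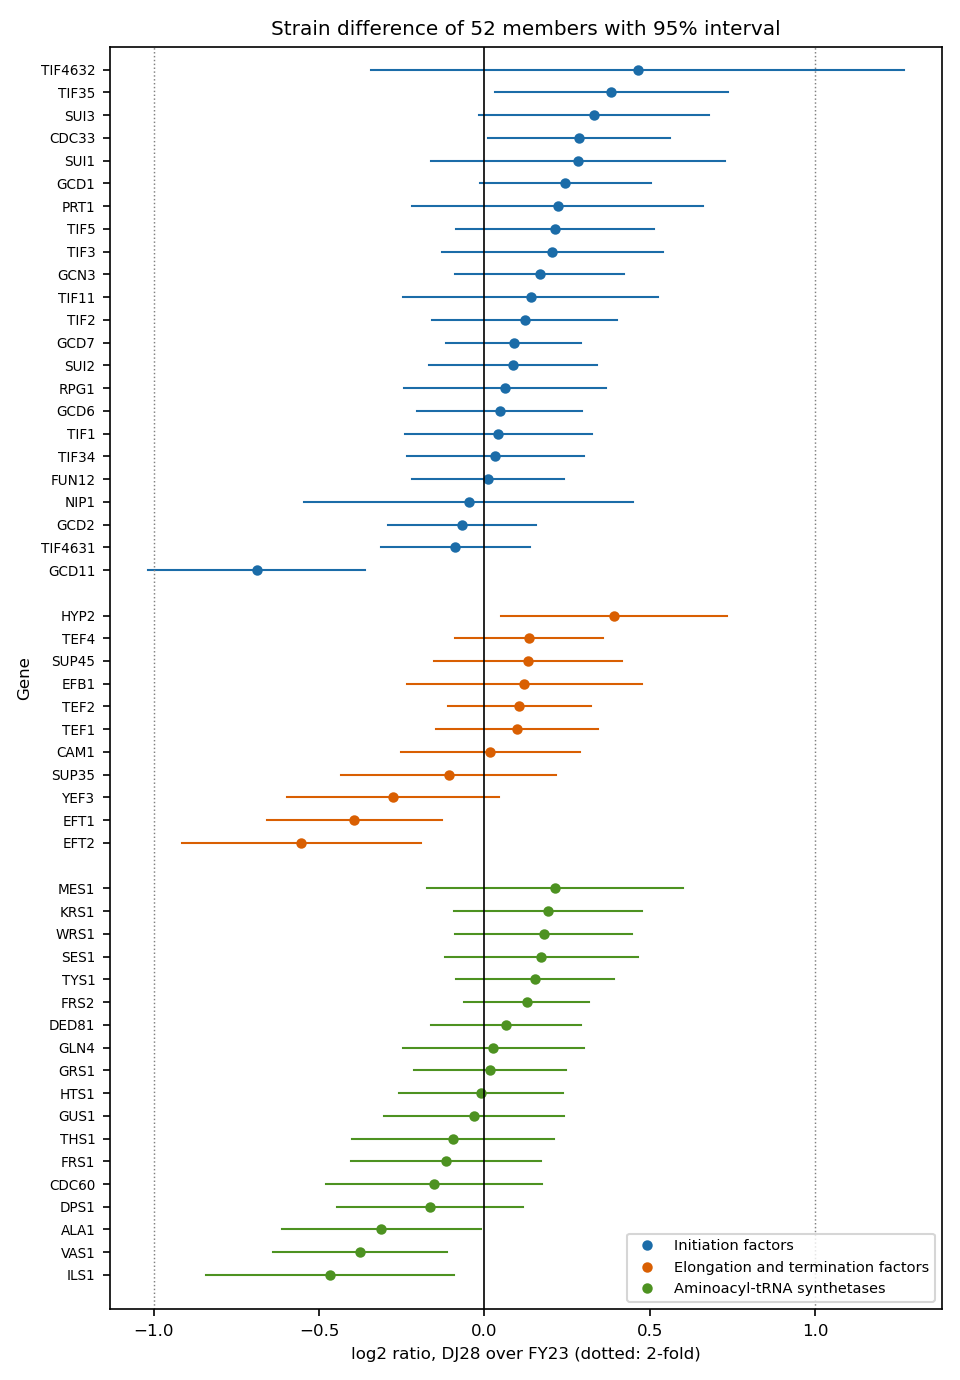
Log2 ratio of DJ28 over FY23 (x axis) for the 52 genes (y axis), ordered by size within each role; points are the fitted differences and bars the 95% intervals of limma's moderated fit on 9 replicates. The intervals of GCD11, EFT1, EFT2, ILS1, VAS1 and ALA1 lie below 0 and those of TIF35, CDC33 and HYP2 above it, before adjustment for 5642 tests; the interval of TIF4632 is the widest.

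Side by side, the factors and the synthetases gave the following values. Among the 34 factors 26 differences were positive, with a median of 0.10, and among the 18 synthetases 9 were, with a median of 0.004. Over all 5642 genes 56.1% of differences were positive, with a median of 0.03. Initiation factors had 19 of 23 positive (median 0.12), and elongation and termination factors had 7 of 11 (median 0.10). On the single replicates, the median of the factors minus the median of the synthetases averaged 0.03 ± 0.19 (SD, n = 9) and was above 0 on 6 of 9. The gap between the classes was thus smaller than its spread between replicates, and no test was made on it because the members were chosen with results of these arrays known.

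On single replicates the medians of both classes ranged widely. For the factors they were -0.06, -0.10, -0.42, 0.10 and 0.02 on arrays 1 to 5, then 0.42 on the mean of arrays 6 and 7, and 0.35, -0.03 and 0.02 on arrays 8 to 10. For the synthetases they were 0.24, 0.10, -0.45, 0.02 and -0.13 on arrays 1 to 5, then 0.10 on the mean of arrays 6 and 7, and 0.36, -0.10 and -0.13 on arrays 8 to 10. Both classes were lowest on array 3, and array 8 was the highest for the synthetases and the second highest for the factors. Genes of cytosolic ribosomal proteins, 133 of which were tested, differed more between the orientations: their median was between -0.57 and -0.36 on arrays 1 to 4 and 0.13 on array 5, and ran from 0.46 to 1.63 on the replicates with DJ28 in Cy5. In the fit, 127 of these 133 differences between DJ28 and FY23 were above 0, with a median of 0.26 (0.13 without arrays 6 and 7), and 0 passed in limma's adjusted test, with 26 higher and 1 lower at an unadjusted p under 0.05.

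**Figure D2:**
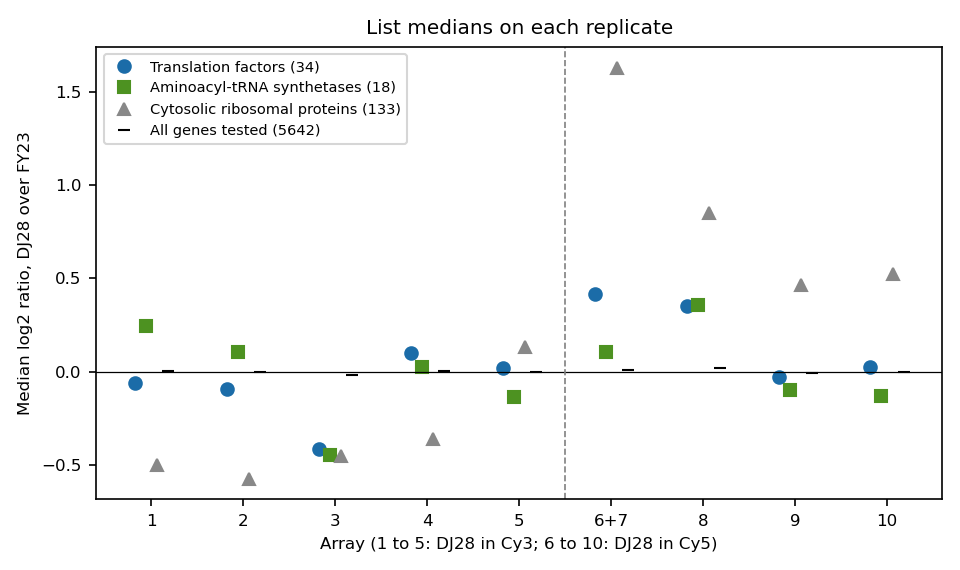
Median log2 ratio of DJ28 over FY23 (y axis) on each of 9 replicates (x axis; arrays 6 and 7 averaged) for 34 translation factors, 18 synthetases, 133 cytosolic ribosomal protein genes and all 5642 genes; the dashed line parts the dye orientations. Factors and synthetases stay between -0.45 and 0.42, while the ribosomal protein genes reach 1.63 on the mean of arrays 6 and 7.

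Among initiation factors the largest negative difference was that of GCD11 (YER025W), the gamma subunit of eIF2, which binds GTP and the initiator tRNA. GCD11 had -0.29, -0.65, 0.19 and -0.86 on arrays 2 to 5, -1.33 on the mean of arrays 6 and 7, and -0.38, -1.30 and -0.89 on arrays 8 to 10. It was below 0 on 7 of 8 replicates, with array 4 the exception, and lower on average in both orientations. The difference was -0.69 with a standard error of 0.15, a 1.61-fold lower ratio, and did not pass (limma adjusted p = 0.0985, 95% interval -1.02 to -0.36). The call depended on the arrays and weights used. GCD11 passed without array 4 (-0.79, limma adjusted p = 0.0325) and without array 8 (-0.79, limma adjusted p = 0.0319). It also passed with arrays 6 and 7 counted apart (-0.725, limma adjusted p = 0.0298), which overstates the number of replicates because these arrays are so closely correlated. With array weights it passed too (-0.68, limma adjusted p = 0.0334). Over all genes these settings gave 36, 79, 79 and 113 calls in the same order, against 31 in the reported fit.

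The other eIF2 subunits had differences above 0. SUI2, the alpha subunit, whose phosphorylation lowers initiation in amino acid starvation, had a difference of 0.09 with a standard error of 0.12. SUI3, the beta subunit, had 0.33 (SE 0.16, limma adjusted p = 0.389). The ratio of GCD11 was below that of SUI3 on 8 of 8 replicates, by 1.02 ± 0.86 on average (SD, n = 8), and below that of SUI2 on 6 of 8; the pairing was chosen after the values were seen and was not tested. The 5 subunits of eIF2B, the factor that reloads eIF2 with GTP, lay between -0.07 for GCD2 and 0.24 for GCD1, with GCN3 at 0.17, GCD7 at 0.09 and GCD6 at 0.05. The widest range in this complex was that of GCN3, its regulatory alpha subunit, with 0.68 and 0.93 on arrays 2 and 3 and -0.28 on array 8.

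The 5 subunits of eIF3, the scaffold that holds the initiation complex together, had differences from -0.05 to 0.38. TIF35, its g subunit, was at the upper end, with 0.07, -0.22, -0.06 and 0.71 on arrays 2 to 5, 1.36 on the mean of arrays 6 and 7, and 0.69, 0.59 and -0.06 on arrays 8 to 10. It was above 0 on 5 of 8 replicates, and for the 0.38 the standard error was 0.16 (limma adjusted p = 0.345). TIF34, the i subunit, stood at 0.03 and RPG1, the a subunit, at 0.06. NIP1, the c subunit, stood at -0.05, but with single arrays as far apart as 2.06 on array 1 and -0.98 on array 9. PRT1, the b subunit, is the gene next to PDE2 in the gene order of assembly R64. It averaged 0.22 (SE 0.20, limma adjusted p = 0.640), and array 9 at 1.78 stood above the other replicates, which ran from -0.34 to 0.25.

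At the mRNA cap, CDC33 encodes eIF4E, which binds the cap, TIF4631 and TIF4632 encode the eIF4G scaffolds, TIF1 and TIF2 the helicase eIF4A and TIF3 its partner eIF4B. CDC33 had -0.66, -0.55, -0.12, -0.29 and -0.07 on arrays 1 to 5, 1.60 on the mean of arrays 6 and 7, and 0.93, 0.53 and 0.58 on arrays 8 to 10. All replicates with DJ28 in Cy3 were thus below 0 and all with DJ28 in Cy5 above it, and the difference was 0.29 (SE 0.13, limma adjusted p = 0.366). TIF4632 had 4.22 on array 1 and between -0.39 and 0.49 on the other replicates. Its difference of 0.46 therefore came down to 0.06 without array 1, and TIF4631 stood at -0.09 with a standard error of 0.10. TIF3 was at 0.21 with a standard error of 0.15. The remaining initiation factors were SUI1 (eIF1) at 0.28, TIF5 (eIF5) at 0.21, TIF11 (eIF1A) at 0.14 and FUN12 (eIF5B) at 0.01.

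**Figure D3:**
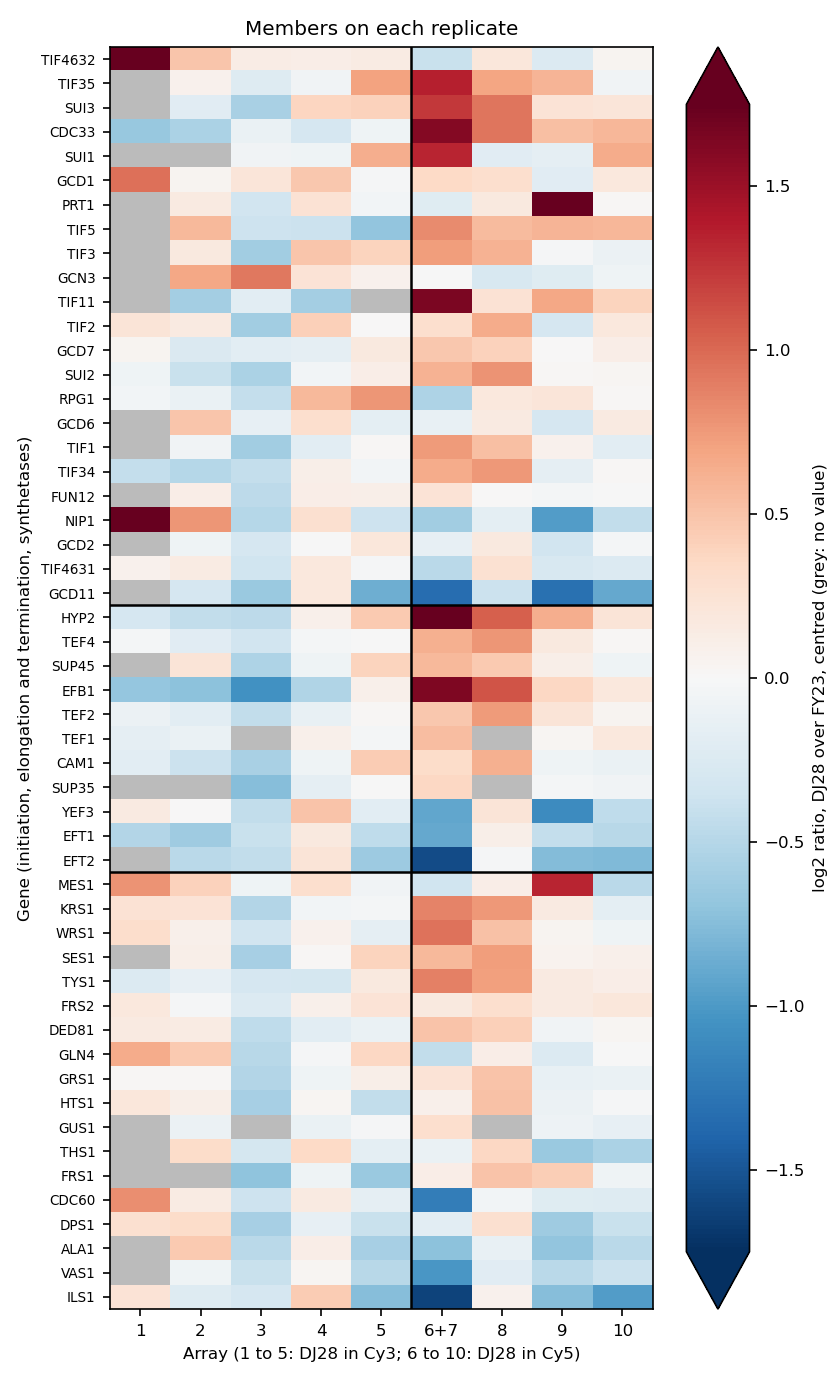
Centred log2 ratio of DJ28 over FY23 (colour) of each of the 52 genes (rows, ordered by fitted difference within role) on 9 replicates (columns; arrays 6 and 7 averaged); grey cells have no value. GCD11, EFT2, VAS1 and ILS1 are below 0 on most replicates, and the deepest colours of both signs fall on the mean of arrays 6 and 7, with single deep cells such as TIF4632 on array 1 (4.22) and PRT1 on array 9 (1.78).

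Elongation and termination factors lay between -0.55 and 0.39. The pair EFT1 (YOR133W) and EFT2 (YDR385W), which encode the same eEF2 protein, the factor that moves the ribosome by a codon, had the most negative differences of the class. EFT1 had -0.51, -0.62, -0.39, 0.17 and -0.45 on arrays 1 to 5, -0.90 on the mean of arrays 6 and 7, and 0.11, -0.42 and -0.49 on arrays 8 to 10. EFT2 had -0.47, -0.43, 0.23 and -0.64 on arrays 2 to 5, -1.56 on the mean of arrays 6 and 7, and -0.02, -0.76 and -0.77 on arrays 8 to 10. Both were above 0 on array 4, EFT1 also on array 8, and each was below 0 on 7 replicates. The difference was -0.39 for EFT1 (SE 0.12, limma adjusted p = 0.238) and -0.55 for EFT2 (SE 0.16, limma adjusted p = 0.228), so neither passed. YEF3, the fungal factor eEF3, which helps to clear the used tRNA from the ribosome, stood at -0.28 with a standard error of 0.15.

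The eEF1 genes lay on the other side of 0 and closer to it. TEF1 and TEF2, which encode the same eEF1A protein, the carrier of charged tRNA, had differences of 0.10 and 0.11, with standard errors of 0.11 and 0.10. EFB1, TEF4 and CAM1, subunits of the exchange factor eEF1B, had 0.12, 0.14 and 0.02. HYP2, which encodes eIF5A, the factor that eases slow steps such as runs of proline, had the largest positive difference of the class. HYP2 had -0.30, -0.43, -0.46, 0.09 and 0.46 on arrays 1 to 5, 1.74 on the mean of arrays 6 and 7, and 1.04, 0.64 and 0.22 on arrays 8 to 10. Its difference was 0.39 (SE 0.16, limma adjusted p = 0.333). The release factors SUP45 (eRF1) and SUP35 (eRF3) stood at 0.13 and -0.11, with standard errors of 0.13 and 0.14.

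Near-identical copies may not be separated on spotted arrays, because their spots may bind each other's cDNA. TEF1 and TEF2 differed on a replicate by 0.11 on average, whatever the sign (n = 7), EFT1 and EFT2 by 0.23 (n = 8) and TIF1 and TIF2 by 0.27 (n = 8). For comparison, FRS1 and FRS2, which encode the unlike beta and alpha subunits of the phenylalanine enzyme, differed by 0.33 (n = 7). TEF4 and CAM1 differed by 0.21 (n = 9), which is less than EFT1 and EFT2 or TIF1 and TIF2. TIF4631 and TIF4632 differed by 0.63 (n = 9), with the high value of TIF4632 on array 1 included. TIF1 and TIF2 stood at 0.04 and 0.12. Cross-binding itself was not tested.

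Among the synthetases, the negative end was held by the enzymes for isoleucine, valine and alanine. ILS1 (YBL076C), the isoleucine enzyme, had 0.24, -0.23, -0.29, 0.45 and -0.75 on arrays 1 to 5, -1.62 on the mean of arrays 6 and 7, and 0.08, -0.74 and -0.98 on arrays 8 to 10. It was below 0 on 6 of 9 replicates, and the difference was -0.47 (SE 0.17, limma adjusted p = 0.298). VAS1 (YGR094W), the valine enzyme, had -0.08, -0.39, 0.03 and -0.49 on arrays 2 to 5, -1.03 on the mean of arrays 6 and 7, and -0.20, -0.48 and -0.38 on arrays 8 to 10. VAS1 was thus below 0 on 7 of 8 replicates, array 4 again being the exception. Its difference of -0.38 had a standard error of 0.12 and did not pass (limma adjusted p = 0.254). ALA1, the alanine enzyme, stood at -0.31 (SE 0.14, limma adjusted p = 0.366).

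At the positive end were MES1, KRS1, WRS1 and SES1, the enzymes for methionine, lysine, tryptophan and serine, with differences of 0.21, 0.19, 0.18 and 0.17 and standard errors of 0.18, 0.13, 0.12 and 0.13. MES1 was 1.34 on array 9, against -0.48 to 0.79 on the other replicates, and its difference without array 9 was 0.02. The other positive differences were those of TYS1 (tyrosine) at 0.15, FRS2 at 0.13, DED81 (asparagine) at 0.07, GLN4 (glutamine) at 0.03 and GRS1 (glycine) at 0.02. Below 0 were HTS1 (histidine) at -0.01, GUS1 (glutamate) at -0.03, THS1 (threonine) at -0.10, FRS1 at -0.12, CDC60 (leucine) at -0.15 and DPS1 (aspartate) at -0.17. None of these passed. Among the synthetases with a value on all 9 replicates FRS2 had the narrowest range, -0.24 to 0.29.

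The signs of the members were also set side by side between the dye orientations. Of the 52, 25 were higher in DJ28 on average with DJ28 in Cy5 and lower with DJ28 in Cy3, and 10 were the other way round, so 67.3% had opposite signs in the orientations, where 58.2% of all genes did. Over all 5642 genes these 2 opposite patterns held 1508 and 1778 genes, in the same order. In both orientations 9 members were higher and 8 lower, where 1228 and 1128 of the 5642 genes were. The 8 included GCD11, EFT1, EFT2, ILS1, VAS1 and ALA1. These 6 were named above for their unadjusted p in a fit to the same values, so their shared sign is no separate evidence. No member kept 1 sign over all its replicates, where 2.13% of all genes did. The dye term is the part of the fit that stays with the dye when the strains are exchanged. The orientations are also different arrays. The dye term therefore holds any other difference in the ratio of DJ28 over FY23 between arrays 1 to 5 and 6 to 10. A difference in the ratio of red over green between these arrays enters the difference between DJ28 and FY23 instead. Neither can be told apart from the term it enters. The dye term was tested in the same fit. The dye term passed for 2 of 52 members, where 3.05% of all genes passed. EFB1 had a dye term of 0.70 (limma adjusted p = 0.0452), with a mean of 0.82 ± 0.67 with DJ28 in Cy5 (SD, n = 4) and -0.58 ± 0.42 with DJ28 in Cy3 (SD, n = 5). CDC33 had a dye term of 0.62 (limma adjusted p = 0.0341), with means of 0.91 ± 0.49 (n = 4) and -0.34 ± 0.26 (n = 5) in the same order. Neither call held without array 1, without array 2, without array 8, or without arrays 6 and 7, where 0 members passed; over all genes the dye-term calls were then 19, 18, 25 and 25, against 172 with all arrays. Cytosolic ribosomal protein genes passed this test in 54 of 133 cases, all with the same sign as EFB1 and CDC33. Over all genes, 159 of the 172 calls had that sign.

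**Figure D4:**
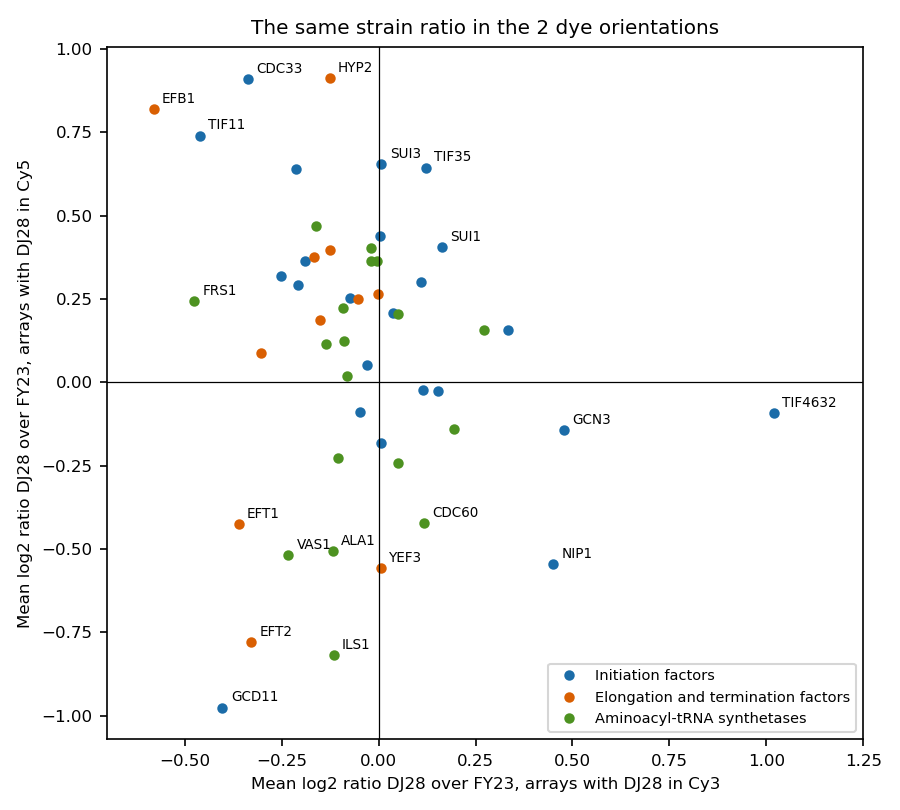
Mean log2 ratio of DJ28 over FY23 of each of the 52 genes on the arrays with DJ28 in Cy3 (x axis, up to 5 replicates) and in Cy5 (y axis, up to 4 replicates). GCD11, EFT1, EFT2, VAS1, ALA1 and ILS1 lie in the lower left, below 0 in both; EFB1, CDC33, TIF11 and HYP2 lie in the upper left, above 0 with DJ28 in Cy5 and below 0 with DJ28 in Cy3.

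The mean of arrays 6 and 7 also spread the members most among the replicates other than array 1. There 7 members lay above 1 and 5 below -1, and the SD over members was 0.83, against 0.80 over all genes. On arrays 2 to 5 and 8 to 10 that SD was between 0.25 and 0.54. Without arrays 6 and 7, 7 of the 49 members still tested changed sign, among them EFB1 (-0.02), TIF1 (-0.03) and CAM1 (-0.004). TIF4632 (0.51) and MES1 (0.30) were larger in size than with those arrays. Of the members named above for an unadjusted p under 0.05, the differences were -0.63 for GCD11 (limma adjusted p = 0.256), -0.42 for EFT2 (0.461), -0.33 for ILS1 (0.619), -0.29 for VAS1 (0.506), -0.31 for EFT1 (0.506), -0.28 for ALA1 (0.635), 0.26 for TIF35 (0.637), 0.25 for HYP2 (0.635) and 0.17 for CDC33 (0.671), all smaller in size and of unchanged sign.

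Arrays 4, 5, 9 and 10, the arrays on which some cells sat at a ceiling, hold both orientations and were also fitted alone, as were the remaining arrays; no label calls either set a batch. GCD11 was at -0.72 within arrays 4, 5, 9 and 10 and at -0.66 within the remaining arrays, with limma adjusted p of 0.156 and 0.413. EFT2 was at -0.49 and -0.62, ILS1 at -0.51 and -0.43, VAS1 at -0.33 and -0.42, and HYP2 at 0.35 and 0.50 in these sets. The medians were 0.03 and 0.18 for the factors and -0.09 and 0.10 for the synthetases. No member passed within either set.

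Other genes of protein synthesis were read from lists of the same kind. Of 17 tested genes for further cytoplasmic translation proteins, 0 passed in limma's test adjusted over all genes (2 at an unadjusted p under 0.05). Their median was 0.02, with 10 above 0. ANB1, which encodes the eIF5A form made in low oxygen and is nearly identical to HYP2, stood at 0.39 (SE 0.14, limma adjusted p = 0.309), next to the 0.39 of HYP2. STM1, which encodes a ribosome-preserving protein, stood at 0.32 (SE 0.13, limma adjusted p = 0.345). CLU1, an eIF3-associated protein, stood at -0.34 with a standard error of 0.17. Of 17 tested genes for mitochondrial synthetases and factors 0 passed in the same limma test (1 at an unadjusted p under 0.05); 8 were above 0 and the median was -0.01. MEF1 at -0.34 and MEF2 at -0.30, which encode mitochondrial elongation factors, were the lowest, and NAM2, the mitochondrial leucine enzyme, was the highest at 0.25 (standard error 0.09, limma adjusted p = 0.284).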

How the data were processed

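The authors deposited 1 value per row and array for 6277 rows, taken here as a log2 ratio between the dyes because of the range of the values. The sources used here do not give the numerator, background correction, normalization or filters. Rows were named from the platform annotation (5663 with 1 symbol, 0 with several, 614 not listed), and updated by gene identifier through assembly R64, which was used only for names and gene order. The 13 cells at the upper limit of 16.61 were set to missing, arrays were centred on their medians, rows of a gene averaged, and arrays 6 and 7 averaged to 1 replicate. Genes with values on at least 3 replicates of each orientation (5642) were fitted across all genes with limma 3.58.1 in R 4.3.3 (lmFit, eBayes), with a dye and a strain term, two-sided moderated tests and Benjamini-Hochberg adjustment at 0.05. The fit was also run on simulated data in which 200 of 5642 genes were changed. It called 61.2% of the 1.5-fold, 86.6% of the 2-fold and 100% of the 4-fold changes, and 9 of its 174 calls were false. The simulated noise was independent between arrays and had 1 spread per gene. Unequal spread between arrays and patterns shared by genes were thus not simulated. The reported fit made 31 calls, fewer than the 174 of the simulation. The adjusted test is less strict when more genes are called, so these shares may overstate what the reported fit could find. Members, lists and tests were chosen with earlier results of these data known. Named genes were the members past either test, the 4 largest differences of each sign per role, and paralogue and subunit pairs; the other members are given for completeness. Alternatives changed the arrays, centring, weights, filter and dye term. No sequences are shown, as none were among the tables used here.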

Additional observations from a re-analysis of the deposited data

Results flagged for a closer look

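Over 64 groups of 4 or 5 replicates (31 named genes, the medians of the factors and of the synthetases and their difference, each in both orientations where values sufficed), 2 held a replicate far from the rest by Dixon's ratio, and chance alone gives about 5% of groups. With DJ28 in Cy3, TIF4632 was 4.22 on array 1, and the next highest of the 5 replicates was 0.49. In the same orientation EFT1 was 0.17 on array 4, where the other 4 replicates lay between -0.62 and -0.39. No label tells these arrays apart from the others of their orientation.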

How the results depend on the processing

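Of 24 alternatives, 0 called a member higher in DJ28, and 4 called 1 member lower, GCD11: without array 4, without array 8, with arrays 6 and 7 counted apart (1) and with array weights (1), so leaving out single arrays gave 0 to 1 lower members. Over all genes, the calls in these 4 settings were 36 of 4174, 79 of 5281, 79 of 5686 and 113 of 5642. The reported fit had 31 of 5642. Members past the test on the dye term, 2 in the reported fit, were 0 to 3 when single arrays were left out, 6 with arrays 6 and 7 counted apart, 0 without both, 0 without arrays 1 and 2, 31 with no centring, where the term also holds each array's offset, 1 with array weights, 1 with no filter on the number of values, 0 within arrays 4, 5, 9 and 10 and 5 within the remaining arrays. Over all genes, 172 of 5642 passed it in the reported fit and 18 to 268 when single arrays were left out. With arrays 6 and 7 counted apart 623 of 5686 passed, and without both 25 of 5292. Without arrays 1 and 2 the count was 0 of 5458. No centring gave 3041 of 5642, array weights 121 of 5642 and no filter 125 of 6180. Within arrays 4, 5, 9 and 10 it was 16 of 5492, and within the remaining arrays 383 of 4199. Class medians moved by less than their SD between replicates (0.25 for factors, 0.24 for synthetases) under every alternative run. This is a loose limit, as each SD was larger than the fitted median itself (0.10 and 0.004). The median of the synthetases changed sign under several alternatives. The median of the factors was below 0 only with DJ28 in Cy3 alone (-0.05), a fit with no dye term. Factors lay above synthetases by 0.03 to 0.19 in all 24. These alternatives refit the same arrays and lists, so their shared sign is no separate evidence. On single replicates the gap was above 0 on 6 of 9. Among the named members, 36 of 726 recomputed differences changed sign, none past the test; 12 of 31, among them GCD11, EFT1, EFT2, ILS1, VAS1, ALA1 and TIF35, changed sign under no alternative. No centring shifted the median of all genes by under 0.1.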
